A study of Mus musculus with 31 samples.

Results

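In livers of *hFIX-R29X* mice, 10 genes of iron metabolism were followed among the 31172 gene symbols of each file. They were fixed by name, with earlier results of these data known: *Hamp* and *Hamp2*, *Tfrc*, *Tfr2* and *Hfe*, *Trf* and *Cp*, *Fth1* and *Ftl1*, and *Slc40a1*. All 31 mice carried a minigene of human factor IX with the R29X nonsense mutation, driven by the human transthyretin promoter, and lacked the mouse *F9* gene. Mice of 8 to 14 weeks received 6 subcutaneous injections, at intervals of 5 days by the protocol but weekly by the dose labels, and the interval from the last injection to collection of the liver was 48 h. The vehicle DPBS was given to 11 mice. Control-GalNAc-ASO, an antisense oligonucleotide with no intended mouse target, was given at 15 mg/kg to 4 mice and at 20 mg/kg to 6. *Upf3b*-GalNAc-ASO, which directs cleavage of the mRNA of the nonsense-mediated decay factor *Upf3b*, was given at 10 mg/kg to 5 mice and at 20 mg/kg to another 5. Females numbered 6, 2, 3, 2 and 2 in these groups, in the order named, and the rest were male. GalNAc is a sugar ligand for a receptor of hepatocytes, so both oligonucleotides were delivered mainly to these cells, whereas RNA came from whole liver. The lower dose level compared 10 with 15 mg/kg, so that target and dose differed together.

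Hepcidin, a peptide hormone secreted by hepatocytes, closes the only known route of iron out of cells by binding the exporter ferroportin, the product of *Slc40a1*. The mouse has a pair of adjacent hepcidin genes. *Hamp* encodes the hormone that controls iron, and *Hamp2* encodes a close relative that lacks this activity and is known to be more abundant in female than in male livers. Transferrin (*Trf*) carries iron in plasma to the transferrin receptor encoded by *Tfrc*, while the products of *Tfr2* and *Hfe* sense transferrin on hepatocytes and raise *Hamp* through BMP signalling. Ferritin, built of chains from *Fth1* and *Ftl1*, stores iron, and ceruloplasmin (*Cp*) is the plasma oxidase that helps iron onto transferrin.

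The 2 hepcidin genes lie on the minus strand of chromosome 7 in GRCm38. The other members lie on chromosomes 16 (*Tfrc*), 5 (*Tfr2*), 9 (*Trf*), 19 (*Fth1*), 7 (*Ftl1*), 1 (*Slc40a1*), 13 (*Hfe*) and 3 (*Cp*). *Hamp* spans 30942368 to 30944032 and *Hamp2* spans 30922372 to 30924681, with 17686 bases between them. The 250 bases before the RefSeq start of each (GRCm38.p6) are printed because the 2 neighbours gave different values in these livers. They cover 30944030 to 30944279 for *Hamp* and 30924182 to 30924431 for *Hamp2*. The spans above are from GENCODE, and the *Hamp2* window lies wholly inside its span. Its RefSeq start is thus downstream of the GENCODE one, whereas the *Hamp* window begins near the GENCODE start. Capitals mark GGCGCC, the core of BMP response elements, and TTCTTGGAA, a site of the kind bound by STAT factors.
Hamp: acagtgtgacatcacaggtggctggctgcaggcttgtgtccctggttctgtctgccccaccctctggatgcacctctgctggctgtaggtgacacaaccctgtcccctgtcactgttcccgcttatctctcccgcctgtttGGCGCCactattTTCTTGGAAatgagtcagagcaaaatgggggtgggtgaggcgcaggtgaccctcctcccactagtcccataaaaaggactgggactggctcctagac
Hamp2: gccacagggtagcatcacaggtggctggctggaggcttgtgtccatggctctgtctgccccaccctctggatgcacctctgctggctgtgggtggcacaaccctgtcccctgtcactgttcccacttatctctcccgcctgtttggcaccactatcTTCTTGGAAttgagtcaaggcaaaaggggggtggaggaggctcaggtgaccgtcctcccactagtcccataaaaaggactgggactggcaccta
The windows were identical at 227 of 253 aligned columns (89.7%), with 20 mismatches and 6 gap columns. TTCTTGGAA was found in both, at position -97 from the start of *Hamp* and -94 from that of *Hamp2*. GGCGCC was found at position -109 of *Hamp* and was not among the letters of the *Hamp2* window, where the substitution G145A falls in it (positions count from 1 at the 5′ end of the *Hamp* window, with the *Hamp* base first). Both strands were searched. Of all 32851 promoter windows, 9.59% held GGCGCC and 0.365% held TTCTTGGAA.

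The sequence listed by the study for the unconjugated Upf3b-ASO is ggatatagatgtaacg, printed to show what it can pair with. Its complement occurred without a mismatch in the transcripts of *Upf3b* alone among 55330 genes. The best match in *Hamp2* transcripts had 6 mismatches, as did that in *Hamp*, and 67.5% of all genes had a match with 6 or fewer. Among the 10 iron genes the closest was *Hfe* with 4 mismatches, a match shared by 5.49% of genes. Introns were not searched, and the sequence was taken to be that of the GalNAc conjugate.

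Values were deposited as TPM, transcript abundance scaled to the same total in every mouse, which in these files behave as scaled reads not divided by length, so no result rests on a comparison of levels between genes. Reads per mouse were estimated from the step between the values of each mouse. The estimates ranged from 1020623 to 7391507 with a median of 3627831, and 3 such reads corresponded to between 0.406 and 2.94 TPM. The paper states a higher average depth of sequencing. The Upf3b-GalNAc-ASO treated female numbered 3 at 10 mg/kg had the fewest reads and the lowest median correlation with its group (0.677, across genes). The male numbered 2 at 20 mg/kg stood apart in its acute phase genes, which summed to 33582 TPM against at most 7580 TPM in any other mouse. *Ddx3y*, a gene of the Y chromosome, separated the labelled sexes, and summed hepatocyte markers were between 16777 and 39648 TPM in all mice. The targeted gene *Upf3b* averaged 14.7 ± 15.6 TPM (SD, n = 10) under *Upf3b*-GalNAc-ASO, with 53.7 TPM in the female of few reads, and 89.6 ± 34.3 TPM (n = 10) under Control-GalNAc-ASO. Its log2 fold change was -2.91 (SE 0.41, limma adjusted p = 7.85e-05) over both dose levels, and -3.17 without that female. At 10 against 15 mg/kg it was -1.73 (SE 0.61, adjusted p = 0.211, means of 21.5 and 57.8 TPM) and did not pass the threshold, nor did it without that female (-2.22, adjusted p = 0.0597). At 20 mg/kg it was -3.87 (SE 0.40, adjusted p = 1.59e-05, means of 7.80 and 111 TPM). It was -2.88 in females (adjusted p = 0.0218, and up to 0.0808 with single mice left out) and -2.93 in males (adjusted p = 0.00947). Against DPBS, *Upf3b* at 10 mg/kg of its own oligonucleotide passed the threshold (-2.57, limma adjusted p = 0.00455, up to 0.24 in alternatives). Control-GalNAc-ASO at 15 mg/kg gave -0.75 against DPBS (adjusted p = 0.691).

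Of the 9 members that could be tested, *Hamp2* alone passed the threshold between *Upf3b*-GalNAc-ASO and Control-GalNAc-ASO over both dose levels, where 6.7% of all genes did, and it fell in females. It was abundant in every female that received DPBS or Control-GalNAc-ASO and at or near 0 in every *Upf3b*-GalNAc-ASO treated female. In females given DPBS it was 140, 206, 312, 317, 349 and 388 TPM. In females given Control-GalNAc-ASO it was 101 and 183 TPM at 15 mg/kg, and 152, 206 and 245 TPM at 20 mg/kg. None of these 11 females was below 101 TPM. In females given *Upf3b*-GalNAc-ASO it was 0 and 1.63 TPM at 10 mg/kg, and 0.842 and 5.13 TPM at 20 mg/kg. The highest of these 4 lay far below the lowest of the 11, so the groups did not overlap at either dose. The 0 was in the female of few reads, in which 3 reads were 2.94 TPM. Its *Upf3b*, at 53.7 TPM, lay within the 27.1 to 78.7 TPM of the control mice at 15 mg/kg.

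*Hamp2* averaged 177 ± 54.4 TPM (SD, n = 5) in females under Control-GalNAc-ASO and 1.90 ± 2.25 TPM (SD, n = 4) in females under *Upf3b*-GalNAc-ASO, a 93.2-fold lower mean. Pooled over mice, 33.2 of 13666961 estimated reads were from *Hamp2* in the latter, or 2.43 TPM (95% Poisson interval 1.68 to 3.41 TPM). In the former it was 188 TPM (182 to 195 TPM). Both intervals cover counting error only and rest on the estimated reads. The log2 fold change in females was -6.13 (SE 0.56, 95% interval -7.28 to -4.98, limma adjusted p = 7.09e-08), computed on log2(TPM + 1), which understates the change of a gene near 0. By p-value *Hamp2* ranked 2 among the 9491 genes tested in females, of which 1.21% were called at an adjusted p under 0.05. The exact permutation test within dose level gave p = 0.0167, the smallest that its 60 arrangements allow. Without the female of few reads, the log2 fold change was -5.82. Of all genes tested, 5.52% separated these 4 and 5 females without overlap. Markers of cell types were summed in these females, and the medians of treated and control females follow in that order. They were 29901 and 30423 TPM for hepatocytes, 670 and 389 TPM for Kupffer cells, 191 and 272 TPM for sinusoidal endothelial cells, 237 and 298 TPM for stellate cells, 1462 and 1330 TPM for erythroid cells, and 23.8 and 18.7 TPM for cholangiocytes. The ranges overlapped for all of these but stellate cells (157 to 277 TPM against 289 to 310 TPM). The acute phase list summed to medians of 5645 and 5956 TPM, with 7 of its 8 tested genes lower, none called and a median log2 fold change of -0.77 beside -0.071 over all genes. The part of these lists in *Hamp2* was not tested.

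In males *Hamp2* was low in every group. It was 0.189, 0.763, 5.43, 6.03 and 18.7 TPM in those given DPBS, 5.59 and 12.2 TPM in those given Control-GalNAc-ASO at 15 mg/kg, and 2.86, 6.77 and 7.38 TPM at 20 mg/kg. *Upf3b*-GalNAc-ASO treated males had 0.875, 1.84 and 3.34 TPM at 10 mg/kg and 2.87, 9.09 and 10.3 TPM at 20 mg/kg. The ranges of treated and control males overlapped. In males the log2 fold change was -0.60 (SE 0.51, 95% interval -1.64 to 0.44, limma adjusted p = 0.648). Of 9104 genes tested in males 0.604% were called. Female and male values of *Upf3b*-GalNAc-ASO treated mice also overlapped, with an exact permutation p of 0.1 among 100 arrangements. Because RNA was taken from whole liver, fewer expressing cells and less RNA per cell cannot be told apart.

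**Figure D1:**
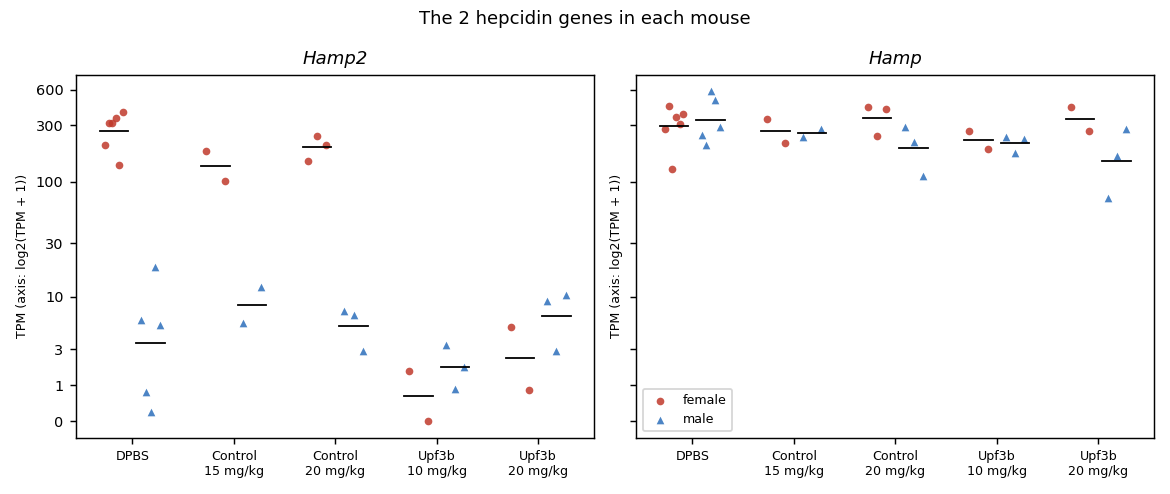
TPM of *Hamp2* (left) and *Hamp* (right) in each of the 31 mice, on a log2(TPM + 1) axis labelled in TPM; red circles are females, blue triangles are males, and bars are means of log2(TPM + 1) within sex and group. *Hamp2* was between 101 and 388 TPM in females given DPBS or Control-GalNAc-ASO and at most 5.13 TPM in those given *Upf3b*-GalNAc-ASO, while *Hamp* overlapped between all groups.

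The difference between the sexes was itself tested. The male log2 fold change minus the female one was 5.53 (SE 0.76, 95% interval 3.98 to 7.08, limma adjusted p = 0.000555). *Hamp2* was the only 1 of 9880 genes (0.0101%) with an adjusted p under 0.05 in this test (1 to 4 genes under other settings), and it stayed between 5.21 and 5.91 when each of the 20 mice was left out in turn. All 9 acute phase genes tested also had a positive difference, with a median of 0.85 and none called, and their part in the result was not tested. The contrasts within each sex were added after the values had been seen. The test says nothing of the size of a fall in males, whose level in control mice was already near that of treated females.

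The same data seen by sex show the pattern from the other side. Among DPBS-treated mice *Hamp2* was lower in males by a log2 fold change of -5.91 (SE 0.58, limma adjusted p = 1.49e-05), and the sexes did not overlap (exact permutation p = 0.00216, the smallest of 462 arrangements), as for 2.12% of genes. It was the only member of 9 tested to be called, where 1.41% of 8998 genes were. Among Control-GalNAc-ASO treated mice the log2 difference was -4.53 (SE 0.35, adjusted p = 6.52e-08), again without overlap, where 1.57% of 9260 genes were called and 3.17% did not overlap. In *Upf3b*-GalNAc-ASO treated mice *Hamp2* was under the 5 TPM minimum in both sexes and was not fitted by limma, which called 0.388% of 9279 other genes there. There the means were 1.90 TPM in females and 4.73 TPM in males.

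With both sexes in the fit, *Hamp2* fell by 3.08 on the log2 scale over both dose levels (SE 0.68, limma adjusted p = 0.00856). It was the 1 member called of 9 tested, where 6.7% of 9132 genes were called. Within dose levels its log2 fold change did not pass the threshold, at -3.84 (SE 0.83, adjusted p = 0.064) for 10 against 15 mg/kg and -2.46 (SE 1.01, adjusted p = 0.224) at 20 mg/kg. At the lower level the 5 treated mice all lay below the 4 control mice, as 4.81% of 9166 genes did in either direction, and the exact permutation p was 0.0167, the smallest of 60 arrangements. At 20 mg/kg the exact permutation p was 0.08. Members called at these levels were 0 of 9 at each, where 0.295% and 2.52% of all genes were called. The difference between the effects at the 2 levels was 1.29 (SE 1.37, adjusted p = 0.814), a test in which limma called 0% of 9797 genes and 799 had an unadjusted p under 0.05. Against DPBS the log2 fold changes of *Hamp2* were -3.65 at 10 mg/kg (adjusted p = 0.118) and -2.39 at 20 mg/kg (adjusted p = 0.39), where 0.376% and 1.13% of all genes were called. These comparisons share their DPBS mice.

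*Hamp*, the hormone gene, was not called in any comparison. In females given *Upf3b*-GalNAc-ASO it was 191 and 268 TPM at 10 mg/kg, and 269 and 427 TPM at 20 mg/kg. In Control-GalNAc-ASO treated females it was 213 and 342 TPM at 15 mg/kg and 244, 409 and 426 TPM at 20 mg/kg, so the groups overlapped. Its log2 fold change was -0.24 over both sexes and dose levels (SE 0.24, 95% interval -0.74 to 0.25, limma adjusted p = 0.586). In females alone it was -0.19 (95% interval -0.94 to 0.56). *Hamp* was 1.48-fold higher on average in females than in males among ASO-treated mice, with an exact permutation p of 0.0362 and a limma adjusted p of 0.271, and limma called none of 9 members there (1.93% of 9109 genes). Among DPBS-treated mice it was 130 to 437 TPM in females and 207 to 583 TPM in males. The lowest *Hamp* of all, 72.9 TPM, was in the male with high acute phase genes, without which the log2 fold change by treatment was -0.083.

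Hamp and Hamp2 transcripts share 128 of their 31-base stretches, which is 33.7% of those in *Hamp* and 23.1% of those in *Hamp2*, so part of the reads could be assigned to either gene. In the 4 treated females *Hamp* stayed between 191 and 427 TPM while *Hamp2* was at most 5.13 TPM.

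**Figure D2:**
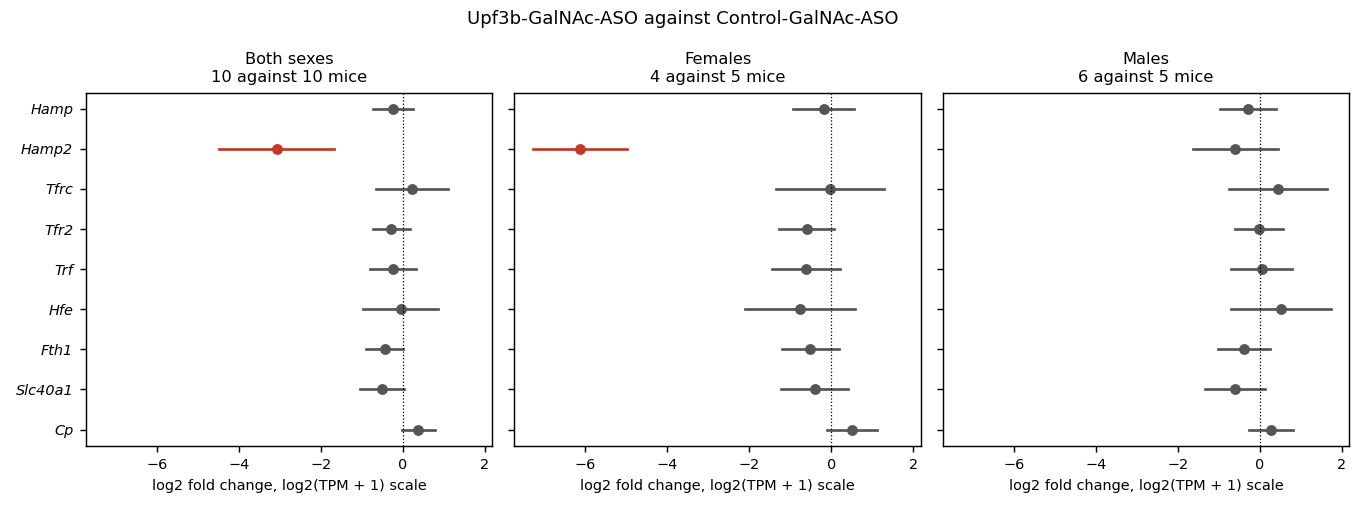
Log2 fold change of each tested member between *Upf3b*-GalNAc-ASO and Control-GalNAc-ASO treated mice over both dose levels, for both sexes, females and males; points are limma estimates on log2(TPM + 1), lines are 95% intervals and red marks an adjusted p under 0.05. *Hamp2* stands at -3.08 in both sexes together and at -6.13 in females, and every other interval includes 0.

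The transferrin receptor gene *Tfrc* had a median of 14.3 TPM in Control-GalNAc-ASO treated mice (range 8.26 to 28) and 20.9 TPM in those given *Upf3b*-GalNAc-ASO (range 2.44 to 127). The highest value belonged to the male with high acute phase genes, which had 12829 TPM of *Saa2* and 6181 TPM of *Saa1*, the serum amyloid genes that rise in inflammation. The log2 fold change was 0.22 (95% interval -0.65 to 1.10, limma adjusted p = 0.799) and -0.11 without that mouse. *Tfrc* also varied widely under DPBS, from listed at 0 to 49.8 TPM. Summed erythroid markers, whose cells also carry this receptor, were 741 to 2013 TPM in treated and 839 to 5351 TPM in control mice, and their part in *Tfrc* was not tested.

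*Tfr2* and *Hfe*, the sensors of transferrin, did not pass the threshold between treatments. *Tfr2* had a mean of 54.9 ± 11 TPM (SD, n = 10) with *Upf3b*-GalNAc-ASO and 68.7 ± 21.7 TPM (n = 10) with Control-GalNAc-ASO, a log2 fold change of -0.28 (95% interval -0.73 to 0.16, limma adjusted p = 0.458). At 10 against 15 mg/kg the treated mice had 32.9, 43.5, 48.3, 61.3 and 68.0 TPM and the control mice 63.7, 72.0, 75.2 and 93.2 TPM. Only the highest treated mouse lay within the control range. The exact permutation p was 0.0667 there. *Hfe* was low everywhere, with means of 12.4 ± 5.34 TPM and 11.4 ± 3.88 TPM. It was listed at 0 in the female of few reads, and its log2 fold change of -0.056 (adjusted p = 0.957) became 0.38 without that mouse.

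*Trf*, the plasma carrier of iron, was between 4799 and 43230 TPM. The lowest value was again in the female of few reads. Its means were 21749 ± 9724 TPM (SD, n = 10) with *Upf3b*-GalNAc-ASO and 24273 ± 6160 TPM (n = 10) with Control-GalNAc-ASO, with a log2 fold change of -0.25 (95% interval -0.81 to 0.31, limma adjusted p = 0.619) that became 0.011 without that female. In DPBS-treated mice *Trf* was between 19906 and 43230 TPM in females and between 15855 and 24874 TPM in males. The male-to-female log2 fold change was -0.57 (SE 0.21, exact permutation p = 0.0368), with a limma adjusted p of 0.354. Of its 31-base stretches 70.5% also occur in the readthrough gene *Gm20425*, which was listed at no more than 0.649 TPM.

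*Cp*, the ceruloplasmin gene, had means of 1201 ± 698 TPM (SD, n = 10) and 879 ± 187 TPM (n = 10) with *Upf3b*-GalNAc-ASO and Control-GalNAc-ASO. The log2 fold change was 0.38 (95% interval -0.022 to 0.78, limma adjusted p = 0.249), and the exact permutation p within sex and dose level was 0.0173. The female of few reads had 3107 TPM, and without it the log2 fold change was 0.23 and the exact permutation p 0.0347. Among ASO-treated mice *Cp* was lower in males, at a mean of 844 against 1280 TPM, with an exact permutation p of 0.00417 and a limma adjusted p of 0.172. Without the female of few reads the female mean was 1052 TPM and the exact permutation p 0.0163. The male-to-female log2 fold change of *Cp* under DPBS was 0.010 (95% interval -0.47 to 0.49, limma adjusted p = 0.991).

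*Fth1*, the ferritin heavy chain gene, had means of 387 ± 157 TPM (SD, n = 10) with *Upf3b*-GalNAc-ASO and 505 ± 148 TPM (n = 10) with Control-GalNAc-ASO. Its log2 fold change was -0.45 (95% interval -0.90 to 0.011, limma adjusted p = 0.235). Values ran from 217 to 747 TPM in treated mice and from 302 to 673 TPM in control mice, and overlapped throughout. The control mice at 15 mg/kg were in turn above DPBS on average (579 against 385 TPM, exact permutation p = 0.0476), a comparison in which limma called none of 8971 genes and 644 had an unadjusted p under 0.05. *Ftl1*, the light chain gene, was listed above 0 in 16 of the 31 mice and at most at 13.5 TPM, and did not reach the minimum for the fit. Of its 31-base stretches 82.9% occur in other genes, 78.1% in *Ftl1-ps1*, a pseudogene copy listed above 0 in 28 mice. The level of ferritin light chain mRNA could not be read from these values.

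*Slc40a1*, the iron exporter gene, had its clearest difference at the lower dose level. The 5 mice given *Upf3b*-GalNAc-ASO at 10 mg/kg had 13.7, 22.5, 28.4, 30.2 and 30.6 TPM and the 4 given Control-GalNAc-ASO at 15 mg/kg had 39.1, 48.0, 53.4 and 62.1 TPM. The groups did not overlap, so that 2 of the 9 tested members, with *Hamp2*, were among the 4.81% of genes separated at this level. The log2 fold change was -1.01 (SE 0.37, exact permutation p = 0.0167, the smallest of 60 arrangements), with a limma adjusted p of 0.22. Without the female of few reads the exact permutation p was 0.0667 among 30 arrangements. At 20 mg/kg it was -0.11 (95% interval -0.84 to 0.62, limma adjusted p = 0.902), with 24.8 to 57.6 TPM in treated and 23.4 to 74.4 TPM in control mice. DPBS-treated mice spanned 19.2 to 102 TPM, a range that held all but 1 of the mice given *Upf3b*-GalNAc-ASO at 10 mg/kg. Over both levels the log2 fold change was -0.51 (95% interval -1.05 to 0.025, adjusted p = 0.245). Kupffer cells, the macrophages of the liver, also make ferroportin, and their summed markers were 237 to 851 TPM at 10 mg/kg and 254 to 502 TPM in the control mice at 15 mg/kg. Their part in *Slc40a1* was not tested. Among DPBS-treated mice *Slc40a1* was lower in males, at a mean of 22.4 against 49.4 TPM in females (log2 fold change -0.93, exact permutation p = 0.039, limma adjusted p = 0.421). The male-to-female log2 fold change among ASO-treated mice was -0.23 (limma adjusted p = 0.726).

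**Figure D3:**
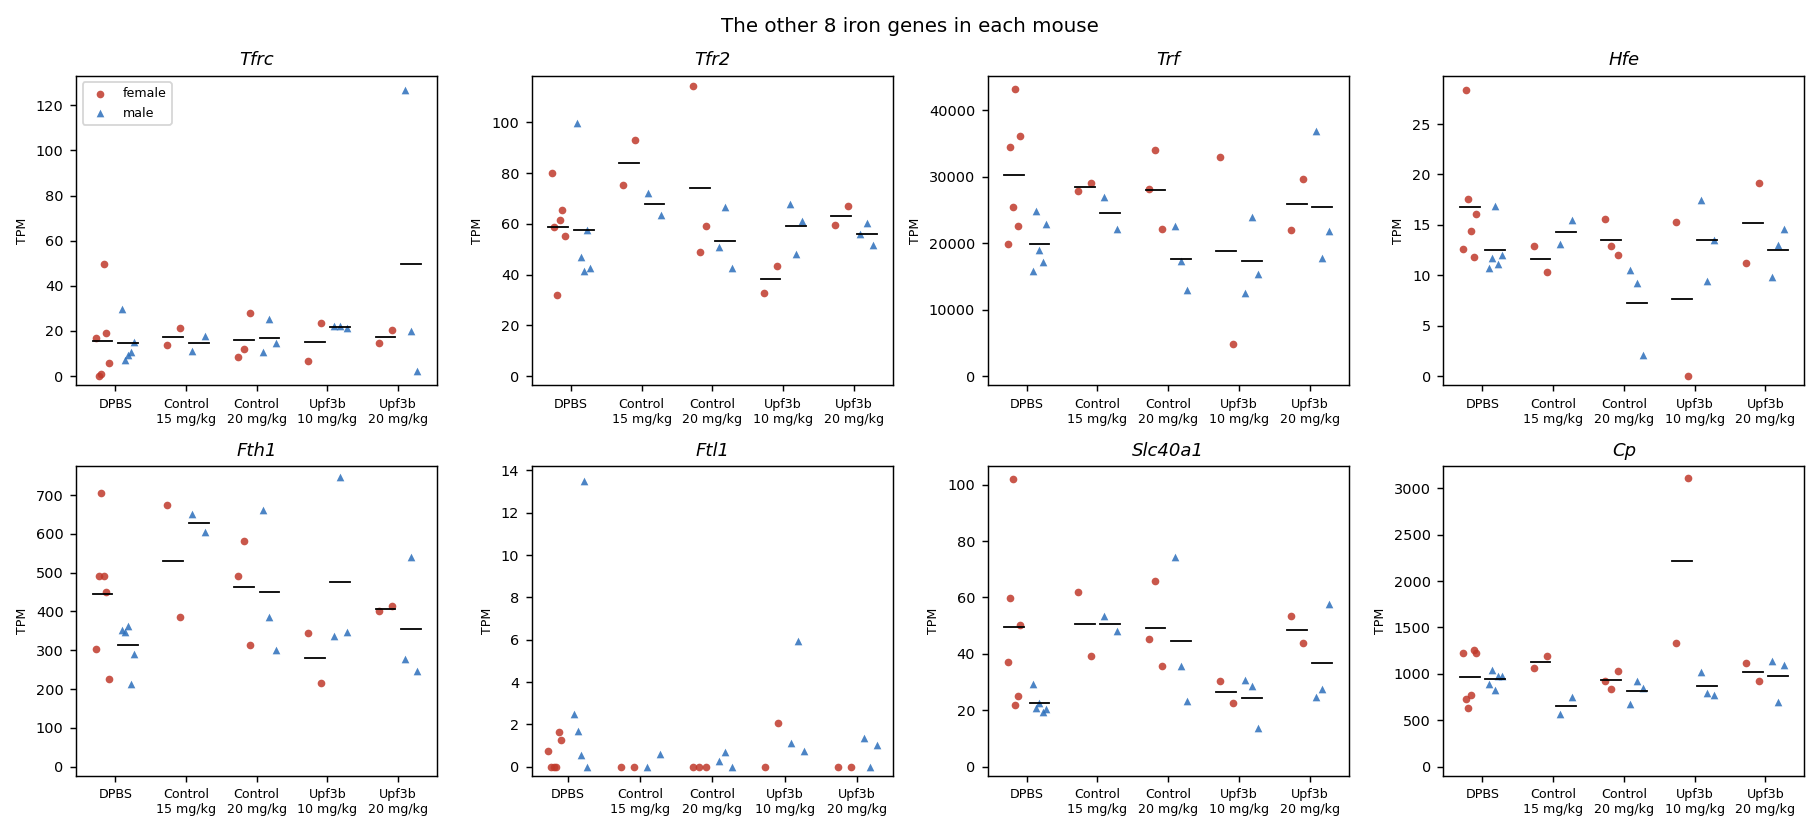
TPM of the other 8 iron genes in each mouse on linear axes; red circles are females, blue triangles are males and bars are means within sex and group (none for *Ftl1*, listed at 0 in 15 mice). Single mice stand out, such as the male at 127 TPM of *Tfrc* and the female at 3107 TPM of *Cp*, and the treated groups otherwise overlap the control groups except for *Slc40a1* at 10 against 15 mg/kg.

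Control-GalNAc-ASO itself called none of the 9 tested members against DPBS at either dose, and no gene at all was called by limma (0% of 8971 and of 9140 genes, with 644 and 905 at an unadjusted p under 0.05, and 0 to 2 genes called under other settings). *Hfe* was lower at 20 mg/kg than under DPBS (10.4 against 14.8 TPM, exact permutation p = 0.021), with 1 control male at 2.07 TPM. *Hamp2* in females was 101 to 245 TPM with Control-GalNAc-ASO and 140 to 388 TPM with DPBS. In all, 90 exact tests were made on the 10 members over 9 comparisons, and 15 had a p under 0.05 before any adjustment, of which 6 were for *Hamp2*. In the same 9 comparisons, 7.18% to 22.4% of all genes had an unadjusted limma p under 0.05, so the count by itself does not set the members apart.

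Beyond the 10 members, 83 genes of the wider pathway were followed in 6 lists, of which 81 were found and 71 passed the minimum in the comparison over both dose levels. Of these, 2 rose and 1 fell at a limma adjusted p under 0.05, where 6.7% of all genes were called. Their median log2 fold change was -0.23, beside -0.068 over all genes tested. The erythroid and hepatocyte markers gave medians of -0.19 and -0.41 in the same comparison, with 0 of 5 and 2 of 8 called, both lower. Sinusoidal endothelial markers had a median of -0.42, with 6 of 8 lower, and Kupffer cell markers one of 0.25, with 6 of 9 higher. The 5 stellate and 2 cholangiocyte markers tested had medians of -0.14 and 0.57, and none of these 4 lists had a gene called. The part of these cell types in the other results was not tested.

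Of the 20 genes that signal to hepcidin, 18 were tested and 1 rose. This was *Atoh8*, a transcription factor that is a target of BMP signalling in hepatocytes. It was 13.5 to 101 TPM with Control-GalNAc-ASO and 38.0 to 227 TPM with *Upf3b*-GalNAc-ASO, with means of 43.4 ± 30.4 TPM and 105 ± 57.1 TPM (SD, n = 10 each). The log2 fold change was 1.46 (SE 0.34, limma adjusted p = 0.00899), and 1.26 without the male with high acute phase genes, whose value was the highest. *Il6ra*, the receptor subunit for interleukin 6, was lower at 20 mg/kg than under DPBS (14.0 against 40.8 TPM, log2 fold change -1.44, limma adjusted p = 0.0408), a call lost in 7 of 15 alternatives, while over both levels the difference from Control-GalNAc-ASO was -0.56 on the log2 scale (adjusted p = 0.249).

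Of 13 genes for the handling of heme, 11 were tested and 1 rose. *Hpx*, the plasma protein that scavenges free heme, had means of 1690 ± 1032 TPM with *Upf3b*-GalNAc-ASO and 670 ± 145 TPM with Control-GalNAc-ASO (SD, n = 10 each), a log2 fold change of 1.22 (SE 0.24, limma adjusted p = 0.00253). Values were 837 to 4271 TPM in treated and 452 to 902 TPM in control mice, so the ranges overlapped slightly. DPBS-treated mice spanned 508 to 1572 TPM with a mean of 952 TPM, a range that overlapped both. The treated means were 1209 TPM at 10 mg/kg and 2172 TPM at 20 mg/kg. *Hpx* is also an acute phase gene, and without the male with high acute phase genes, which had the highest value, the log2 fold change was 1.03. The acute phase list as a whole had 9 genes tested, 0 called higher and 1 called lower, and the part of this response in *Hpx* was not tested. *Abcg2*, an exporter of porphyrins, had a log2 fold change of -0.93 (adjusted p = 0.0822). It was higher in males among ASO-treated mice by 2.05 on the log2 scale (adjusted p = 0.0002).

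Of 9 genes for heme synthesis, all were tested and 1 fell. *Alad*, the second enzyme of the pathway, had means of 33.7 ± 14.5 TPM with *Upf3b*-GalNAc-ASO and 56.8 ± 17.7 TPM with Control-GalNAc-ASO (SD, n = 10 each), a log2 fold change of -0.87 (SE 0.27, limma adjusted p = 0.0484). This call was lost in 23 of 30 alternatives, with adjusted p up to 0.112. Under DPBS *Alad* had means of 62.8 TPM in females and 36.3 TPM in males. In the same order, the means were 25.6 and 39.0 TPM with *Upf3b*-GalNAc-ASO, and 49.3 and 64.3 TPM with Control-GalNAc-ASO. *Alas2*, the erythroid form of the first enzyme, was not called by treatment but differed by sex under DPBS. It was 3.34 to 6.76 TPM in females and 41.2 to 62.3 TPM in males, a log2 fold change of 3.02 (SE 0.35, adjusted p = 2.38e-05), while the summed erythroid list, of which it is a member, was 791 to 1908 TPM in females and 707 to 1997 TPM in males. The sexes also differed among all ASO-treated mice (log2 fold change 2.08, limma adjusted p = 0.00217). They differed among Control-GalNAc-ASO treated mice too (1.77, adjusted p = 0.0365), a call lost in 2 of 6 alternatives. In *Upf3b*-GalNAc-ASO treated mice *Alas2* was 0 to 13.7 TPM in females and 23.4 to 51.8 TPM in males, a log2 fold change of 2.40 (adjusted p = 0.193). The 0 was in the female of few reads, and the other 3 females had 10.0 to 13.7 TPM.

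None of the genes for iron sensing in cells (6 tested), for other iron transport (10 tested) or for assembly of iron-sulfur clusters (17 tested) was called in this comparison. For 2 genes of each list, those with the highest mean over all mice in the deposited TPM, the mean TPM under *Upf3b*-GalNAc-ASO and under Control-GalNAc-ASO, in that order, was 238 and 235 for the iron chaperone *Pcbp1*, 102 and 81.0 for *Skp1a*, 50.1 and 52.4 for the zinc and iron importer *Slc39a14*, 49.3 and 65.6 for the mitochondrial importer *Slc25a37*, 243 and 252 for the chaperone *Hspa9*, and 254 and 242 for *Glrx5*.

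**Figure D4:**
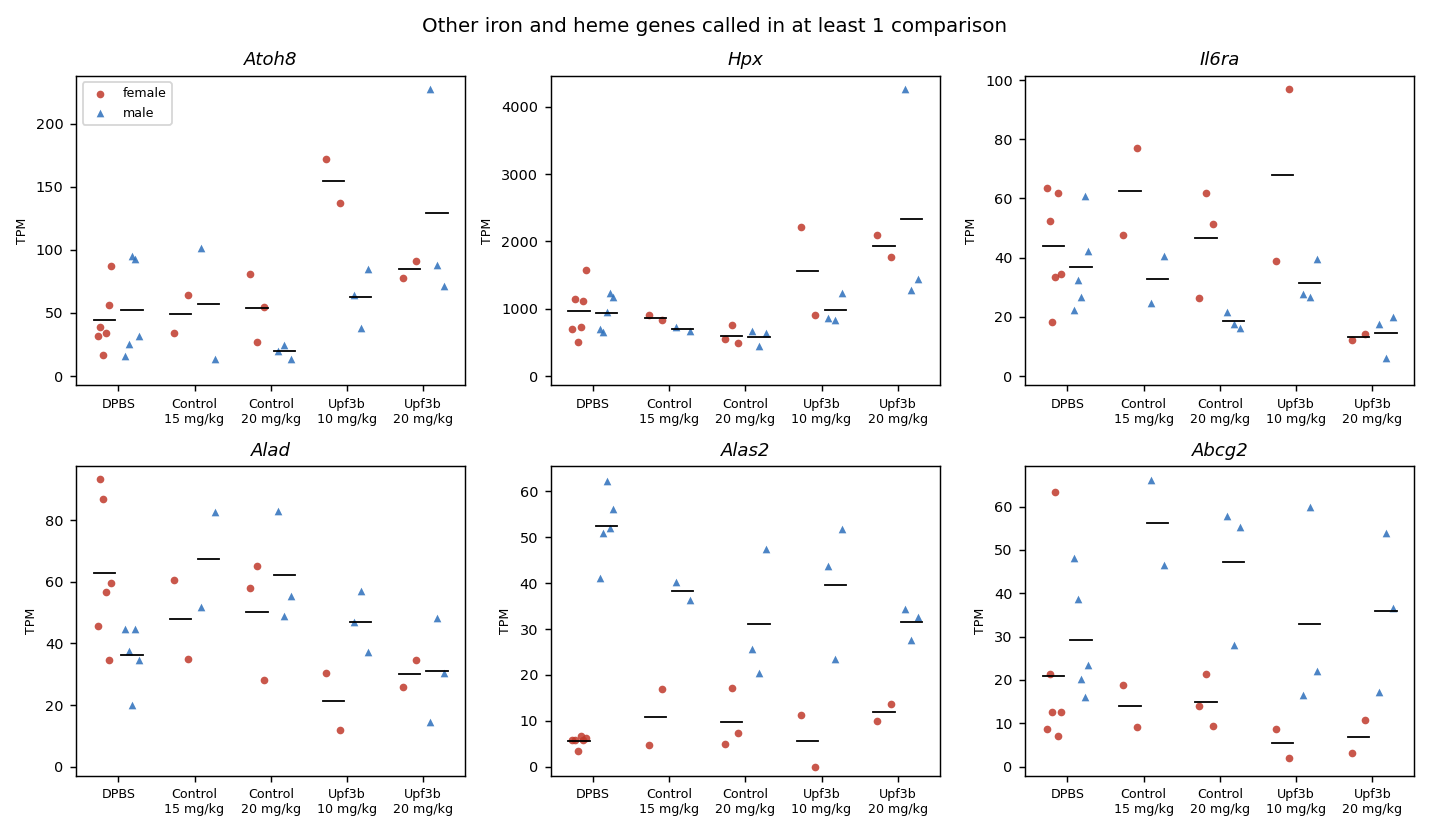
TPM in each mouse, on linear axes, of the 6 other iron and heme genes with an adjusted p under 0.05 in at least 1 comparison; red circles are females, blue triangles are males and bars are means within sex and group. *Hpx* and *Atoh8* are higher on average with *Upf3b*-GalNAc-ASO than with Control-GalNAc-ASO, and their treated values overlap those of DPBS-treated mice. *Alas2* does not overlap between the sexes within any group.

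Across the 31 mice, after the mean of each group and sex was removed, the genes most like each hepcidin gene were sought among those with a median of at least 5 TPM. For *Hamp2* they were *Scd1* (Pearson r = 0.716), *Iqsec1* (0.708) and *Pkd1* (0.665). For *Hamp* they were *Pklr* (0.785), *Setd3* (0.747) and *Zfpm1* (0.733), and *Hamp* with *Hamp2* gave 0.206. For *Tfrc* they were *Nabp1* (0.879), *Topbp1* (0.733) and *Harbi1* (0.727). These are descriptions over mice that share libraries and groups, chosen as the highest of 8502 genes, and carry no test.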

How the data were processed

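Liver RNA of 31 mice was sequenced. Per the labels, reads were converted with bcl2fastq 2.17.1.14 and quantified with Salmon 0.7.2 on GRCm38. For each mouse the authors deposited 1 TPM value per symbol. The labels name a kit for 3′ ends, the study's methods another protocol. Between 66.4% and 81.3% of values above 0 were whole multiples of 1 step per mouse (within 0.02 of a read, 4% by chance), so the deposited TPM were not divided by length, and since not nearly all were whole no count test was run. Of 31198 symbols, 26 had become dates and were left out. Depth per mouse, estimated from that step, was 1020623 to 7391507 reads, below the average depth that the paper states. Counting intervals rest on these estimates and cover counting error only.

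The 10 members and all gene lists were chosen with earlier results of these data known. Mice were grouped by their labels. limma 3.58.1 in R 4.3.3 (trend and robust) was fitted to log2(TPM + 1) of every gene whose median reached 5 TPM in 1 of the groups compared, restricted to the mice of each comparison and adjusted for sex, and p-values were adjusted by Benjamini-Hochberg over all genes. Fits over both dose levels had dose level as a term, and the contrasts by sex came from a fit with treatment, sex, their product and dose level. Single members were also tested by exact permutation, two-sided, within sex and dose level (within group for sexes), without adjustment. Tests were checked on simulated data. Named genes were the members, every other listed gene with an adjusted p under 0.05 in a comparison (or the 2 most abundant of a list with none), *Upf3b*, and the 3 genes most like *Hamp*, *Hamp2* and *Tfrc*. Positions and transcripts were from GENCODE M21 (GRCm38), promoters from RefSeq (GRCm38.p6), which held 8 of the 10 members. Other pseudocounts, minimums, scaling, moderation, samples and a replicate block were tried. Mice given *Upf1*-GalNAc-ASO are not analysed here.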

Additional observations from a re-analysis of the deposited data

Results flagged for a closer look

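The difference of the *Upf3b*-GalNAc-ASO effect on *Hamp2* between the sexes, 5.53 on the log2 scale (male minus female, limma adjusted p = 0.000555), drew attention because the test of the difference itself passed. Males given Control-GalNAc-ASO had only 2.86 to 12.2 TPM of *Hamp2*, so a fall as large as that of females was not possible in them on this scale. In 40 sets of 1 member in 1 ASO-treated group, 6 mice stood far from the rest by Dixon's criterion, which flags about 1 set in 20 by chance. They were *Tfrc* at 6.82 TPM in the 10 mg/kg *Upf3b*-GalNAc-ASO female numbered 1 (nearest 21.4) and at 127 TPM in the 20 mg/kg male numbered 2 (nearest 20.3). They were also *Tfr2* at 114 TPM in the Control-GalNAc-ASO female numbered 1 at 20 mg/kg (nearest 66.8), *Fth1* at 747 TPM in the 10 mg/kg *Upf3b*-GalNAc-ASO male numbered 4 (nearest 346) and *Cp* at 3107 TPM in the female numbered 3 (nearest 1334). *Ftl1* was at 0.581 TPM in the Control-GalNAc-ASO male numbered 3 at 15 mg/kg, with the others listed at 0.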

How the results depend on the processing

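The number of members called was the same under every alternative run, except at 10 against 15 mg/kg. There *Hamp2* passed the threshold, so that 1 member rather than 0 was called, with a pseudocount of 5 (adjusted p = 0.048), with the replicate block (adjusted p = 0.0315) and without the *Upf3b*-GalNAc-ASO mouse numbered 1 or 3, and leaving out each mouse gave 0 to 1 members. The cause was not tested. Over both dose levels *Hamp2* lay between -3.40 and -2.27 in all alternatives, with adjusted p from 0.0026 to 0.0285. It was -3.36 with the replicate block. Correlations of same-numbered mice ran from -0.265 to 0.363 without a common sign, so the numbers were not taken as pairs. At 10 against 15 mg/kg 2 of 4 such pairs were over 0.1. Their mean was 0.064 beside -0.017 for unlike numbers, and so few pairs cannot settle the question. The replicate block ended the calls of *Alad* over both levels, *Atoh8* at 20 mg/kg, *Il6ra* at 20 mg/kg against DPBS and *Upf3b* at 10 mg/kg against DPBS. In females *Hamp2* lay between -6.58 and -4.68.

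Signs of values near 0 turned over both levels. *Hfe* was 0.036 with a pseudocount of 5 and from -0.31 to 0.38 with each mouse left out, *Trf* from -0.36 to 0.011 and *Tfrc* from -0.11 to 0.55. *Slc40a1* at 20 mg/kg was 0.0027 with median-of-ratios scaling and from -0.28 to 0.13 with each mouse left out, positive without the Control-GalNAc-ASO mouse numbered 2 or the *Upf3b*-GalNAc-ASO mouse numbered 2. The call of *Alad* was lost in 23 of 30 alternatives and that of *Il6ra* at 20 mg/kg against DPBS in 7 of 15, with adjusted p up to 0.396. Of the 90 exact tests, 14 rather than 15 had p under 0.05 on the TPM scale. Without the female of few reads, an alternative added after seeing the data, *Slc40a1* at 10 against 15 mg/kg lost its exact p under 0.05 (0.0667). Over all genes, calls ranged from 184 to 768 (main 612) over both levels, from 2 to 431 (27) at 10 against 15 mg/kg, from 45 to 304 (236) at 20 mg/kg, from 9 to 62 (34) and 42 to 163 (103) against DPBS, from 47 to 217 (115) in females, from 15 to 62 (55) in males from 0 to 2 (0) for each Control-GalNAc-ASO dose against DPBS and for the dose difference, from 1 to 4 (1) for the difference between the sexes and from 20 to 41 (36) between the sexes of *Upf3b*-GalNAc-ASO treated mice. Median-of-ratios scaling moved the share of higher calls from 36.9% to 55% at 20 mg/kg, from 40.2% to 50.2% over both levels, from 29.6% to 43.7% in females and from 44.9% to 55.8% between the sexes of ASO-treated mice, and shifted the median of all genes by 0.11 at 20 mg/kg. Leaving out each mouse was not run in limma for the dose difference, the sexes among ASO-treated mice, males alone or the DPBS mice of the comparisons with DPBS. Depth limits *Hamp2* at low levels, where 3 estimated reads were 2.94 TPM in the shallowest mouse.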
